A study of Mus musculus with 12 samples.

Results

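The integrin and laminin chain genes are the mouse genes that encode integrin alpha and beta subunits and laminin alpha, beta and gamma chains. They were chosen by symbol, with no measured value, after the RefSeq accession of each array probe had been paired with its gene. The RefSeq table holds 37 such genes, and 32 of them had a named probe on the array, of 17178 named genes in all. Of these, 27 were bright enough to be tested among 12300 tested genes: 13 integrin alpha genes, 7 integrin beta genes and 7 laminin genes. Itga2, Itgam, Itgax, Lama1 and Lamc3 had a named probe but did not pass the filter on dim probes, and Itga10, Itgad, Itgb8, Lama3 and Lamc1 were not analysed here. Itgbl1 and Itgb2l, which have similar names but are not among the subunits, were kept apart.

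RNA came from the mouse embryonic fibroblast line C3H/10T1/2, whose cells turn towards skeletal muscle when they express MyoD, a helix-loop-helix transcription factor of muscle precursors. The 4 groups of 3 single-colour arrays were shSix4 cells that received MyoD or the empty vector and shLuc cells that received MyoD or the empty vector. shSix4 is a stable short hairpin line against Six4, a homeobox transcription factor, and shLuc is the stable control hairpin line. MyoD and the empty pBABE vector were delivered by retrovirus, and 24 h later all 4 groups changed to 2% horse serum medium, kept for 24 h, so every group carried a hairpin, a virus and the low-serum step. The design asks how loss of Six4 changes the conversion to muscle.

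Integrins are cell-surface receptors made of 1 alpha and 1 beta subunit, and the pair decides which matrix protein is bound. Laminins are cross-shaped trimers of an alpha, a beta and a gamma chain that form the sheet of the basement membrane. In skeletal muscle, the receptor of Itga7 and Itgb1 links the fibre to the laminin that contains the Lama2 chain, and inherited loss of Lama2 or Itga7 causes muscle disease.

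Each level below is log2 of the probe's processed signal minus the 75th percentile of its array, so 0 is the 75th percentile and a difference of 1 is 2-fold. Levels of different genes come from different probes and are not compared with each other. On single arrays, 22318 to 27448 of the 41174 probes exceeded background clearly. Of the 27 tested genes, the number above background on all 3 arrays of a group was 25 with MyoD and 23 with empty vector for shSix4, and 26 with MyoD and 24 with empty vector for shLuc. Each of 3 slides carried 1 array of every group, and values of a group are given in the order slide 1, slide 2, slide 3. The position on the slide was fixed by group, so position and group cannot be told apart.

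Six4, the target of the hairpin, stood at -3.03, -2.93 and -1.54 in shSix4 cells with MyoD, against -1.45, -1.69 and -0.85 in shLuc cells with MyoD. With empty vector it stood at -4.10, -3.0 and -2.82 in shSix4 cells, against -2.62, -2.90 and -1.64 in shLuc cells. Six4 was lower in shSix4 cells on all 3 slides with either vector, but by limma the difference did not pass the threshold (-1.17 ± 0.49, adjusted p = 0.558 with MyoD, or 0.0424 with the slide as a block, and -0.92 ± 0.49, adjusted p = 0.999 with empty vector). Myog, an early muscle transcription factor, was at 6.37 to 7.16 in shSix4 cells with MyoD, against -7.08 to -6.35 with empty vector, and at 7.80 to 8.11 in shLuc cells with MyoD, against -6.25 to -5.29 with empty vector. Myod1, which encodes MyoD, rose by 4.03 ± 0.90 with MyoD in shLuc cells (limma adjusted p = 0.0315). In shSix4 cells its difference of 2.10 ± 0.90 did not pass (limma adjusted p = 0.482, or 0.0943 with the slide as a block), and the arrays overlapped. Its empty-vector value on slide 3 was missing in both lines. All 10 skeletal muscle markers rose with MyoD in both lines. Of these, Tnnc2, Mylpf, Cdh15 and Acta1 were also above background on all empty-vector arrays. Myog, Myh3, Myh8, Ckm, Des and Chrna1 passed the filter on dim probes only through the groups with MyoD, so their calls are a description. All 10 fibroblast markers were above background on all arrays, and none of them passed the threshold in any of the 5 comparisons. With the slide as a block, 4 were lower with MyoD in shLuc cells, where that fit called 15.7% of all genes lower. In these bulk samples, fewer cells of a type and less RNA per cell cannot be told apart.

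With MyoD, a few members moved by a large amount and most did not pass the test. In shSix4 cells, 5 of 27 members passed and all 5 were higher with MyoD: Itgb6, Itga7, Lama5, Lama2 and Lamb3. In shLuc cells, 6 of 27 passed: Itgb6, Itga7, Lama5, Lama2 and Itga6 were higher and Itgb4 was lower. Here passing means a Benjamini-Hochberg adjusted p under 0.05 over all 12300 genes in limma. That rule called 2.89% of all genes in shSix4 cells (2.79% higher, 0.106% lower) and 6.28% in shLuc cells (4.72% higher, 1.56% lower), against 18.5% and 22.2% of the members. Both member shares include Itgb6, which passed the filter on dim probes only through the groups with MyoD. The median change of the members was 0.01 in shSix4 cells, against -0.06 for all genes, and -0.08 in shLuc cells, against -0.14 for all genes. A lower value in shLuc cells should therefore be read against that general shift.

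With the slide as a block, 8 members passed in shSix4 cells (6 higher, 2 lower), beside 8.3% of all genes (5.7% higher, 2.6% lower). In shLuc cells 13 passed (7 higher, 6 lower), beside 25.6% of all genes (9.89% higher, 15.7% lower). The members added in shSix4 cells were Itga6, Itgb3 and Itgb4. Those added in shLuc cells included Itga4 (which passed the filter on dim probes only through shLuc cells with MyoD), Itgae, Itgav, Itgb7, Lama4 and Lamb2. The MyoD and empty-vector arrays did not overlap for 12 of 27 members in shSix4 cells (8 higher, 4 lower), beside 14.6% of all genes (7.19% higher, 7.39% lower). In shLuc cells they did not overlap for 12 of 27 as well (8 higher, 4 lower), beside 26.2% of all genes (10.2% higher, 16% lower).

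**Figure D1:**
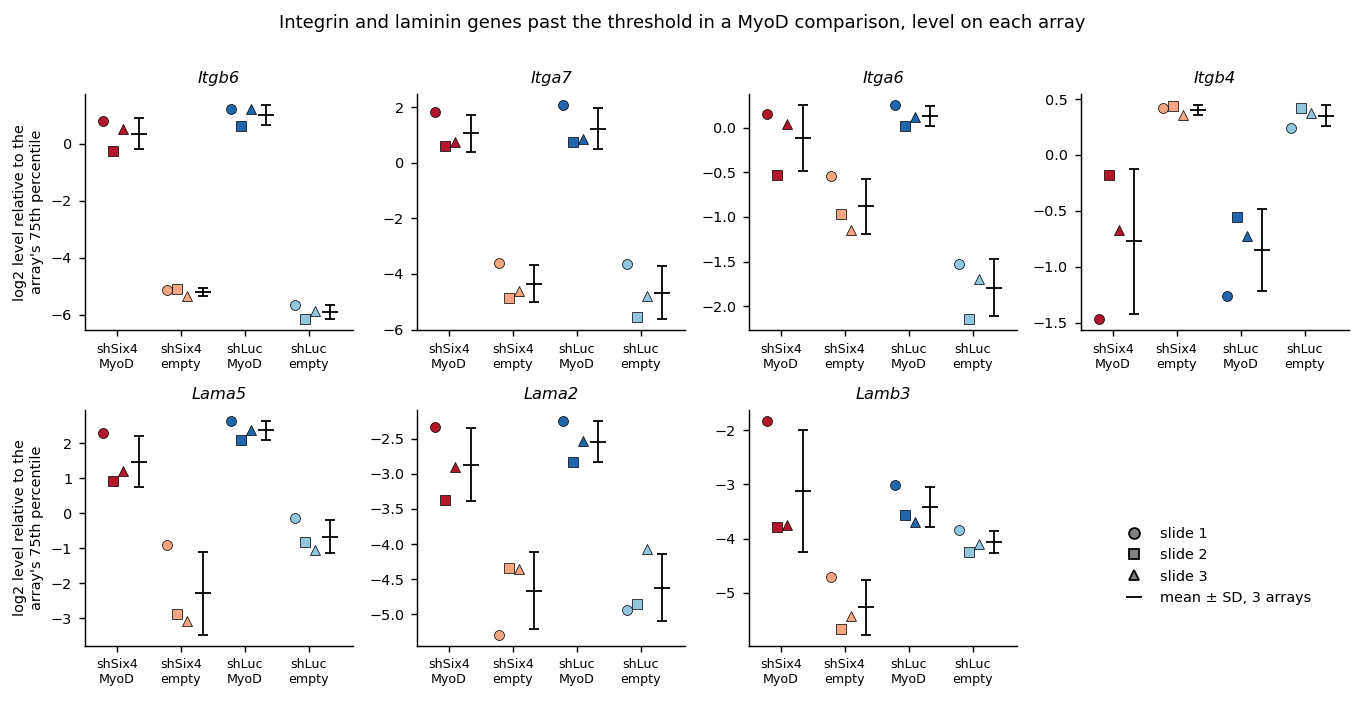
Level of each integrin or laminin gene that passed the threshold in a MyoD comparison, as log2 relative to the 75th percentile of the array, for the 4 groups of 3 arrays. Symbols are single arrays by slide and black bars are the group mean ± SD. In both lines Itgb6, Itga7, Lama5 and Lama2 lie higher on every MyoD array than on every empty-vector array, and Itgb4 lies lower.

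Among the laminin receptors, Itga7 rose in both lines. Itga7 encodes the alpha subunit that pairs with Itgb1 into the main laminin receptor of muscle fibres. Its level was 1.81, 0.59 and 0.76 in shSix4 cells with MyoD, against -3.59, -4.86 and -4.60 with empty vector. It was 2.07, 0.74 and 0.85 in shLuc cells with MyoD, against -3.65, -5.55 and -4.81 with empty vector. Every MyoD array lay far above every empty-vector array in both lines, and slide 1 read highest in each group. The change was 5.41 ± 0.55 in shSix4 cells (SE, n = 3 each, limma adjusted p = 0.000146), a 42.4-fold rise, with 5.36 to 5.45 on the single slides. In shLuc cells it was 5.89 ± 0.55 (limma adjusted p = 4.47e-05), a 59.3-fold rise, with 5.65 to 6.29 on the single slides. The probe was well above background on 3 of 3 arrays of shSix4 cells with empty vector and on 2 of 3 of shLuc cells with empty vector.

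Itga6 encodes an alpha subunit that binds laminin with either Itgb1 or Itgb4. Its level was 0.15, -0.54 and 0.04 in shSix4 cells with MyoD, against -0.54, -0.96 and -1.14 with empty vector. It was 0.25, 0.02 and 0.12 in shLuc cells with MyoD, against -1.53, -2.15 and -1.70 with empty vector. The MyoD arrays of the 2 lines overlapped, and the empty-vector arrays of shSix4 cells lay between them and those of shLuc cells. In shSix4 cells the difference was 0.77 ± 0.24 (limma adjusted p = 0.193, or 0.0163 with the slide as a block). In shLuc cells Itga6 rose by 1.92 ± 0.24 (limma adjusted p = 0.000503), which is 3.79-fold.

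Itgb4 encodes the partner of Itga6 in hemidesmosomes, the junctions that anchor epithelial cells to laminin. Its level was -1.47, -0.18 and -0.67 in shSix4 cells with MyoD, against 0.42, 0.44 and 0.35 with empty vector. It was -1.26, -0.55 and -0.73 in shLuc cells with MyoD, against 0.24, 0.42 and 0.38 with empty vector. The empty-vector arrays lay within a narrow band in both lines and all 6 MyoD arrays lay under it. The difference was -1.18 ± 0.30 in shSix4 cells (limma adjusted p = 0.0693, or 0.00954 with the slide as a block). In shLuc cells Itgb4 fell by 1.20 ± 0.30 on the log2 scale (limma adjusted p = 0.0367, or 0.00446 with the block), which is 2.29-fold. Its other kept probe read -1.08 in shSix4 cells and -1.11 in shLuc cells. In shLuc cells the adjusted p was above the threshold in 8 of 12 fits that each left out 1 array. It was 0.141 and 0.0886 without the shLuc MyoD array of slide 1 or 3, and 0.0845, 0.119 and 0.0979 without the shLuc empty-vector array of slide 1, 2 or 3. It was 0.0563 without the shSix4 MyoD array of slide 3, and 0.0573 and 0.0592 without the shSix4 empty-vector array of slide 2 or 3. In shSix4 cells the adjusted p was 0.0168 without the shSix4 MyoD array of slide 2, with a difference of -1.47.

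The other laminin-binding subunits did not pass in either line. Itga3 encodes an alpha subunit that binds laminins with Itgb1. Its level was -0.72, -1.95 and -1.86 in shSix4 cells with MyoD, against -1.42, -2.37 and -2.24 with empty vector. It was -1.09, -1.56 and -1.39 in shLuc cells with MyoD, against -1.12, -1.14 and -1.54 with empty vector. The groups overlapped in both lines, and its 3 kept probes disagreed in sign, with changes of -0.05 to 0.53 in shSix4 cells and -0.31 to 0.26 in shLuc cells. Itgb1 encodes the beta subunit shared by most matrix receptors. Its level was 3.09, 2.90 and 3.29 in shSix4 cells with MyoD, against 2.92, 3.08 and 3.25 with empty vector. It was 2.87, 2.94 and 3.10 in shLuc cells with MyoD, against 2.84, 3.09 and 3.23 with empty vector. Its other kept probe read -0.37 in shSix4 cells, so the probes disagreed in sign there. All 12 Itgb1 values lay within the same narrow range, and the change was 0.01 ± 0.18 in shSix4 cells (95% interval -0.39 to 0.41) and -0.08 ± 0.18 in shLuc cells (95% interval -0.48 to 0.31).

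Itgb6 rose in both lines. It encodes the beta subunit that pairs with Itgav into a receptor for RGD-containing ligands, among them the latency peptide of TGF-beta, and it is known mainly from epithelia. Its level was 0.80, -0.23 and 0.53 in shSix4 cells with MyoD, against -5.13, -5.10 and -5.34 with empty vector. It was 1.22, 0.63 and 1.22 in shLuc cells with MyoD, against -5.64, -6.15 and -5.88 with empty vector. MyoD and empty-vector arrays were separated by more than any spread within a group. The change was 5.56 ± 0.28 in shSix4 cells (limma adjusted p = 5.15e-07), a 47.1-fold rise with 4.87 to 5.93 on the single slides. In shLuc cells it was 6.92 ± 0.28 (limma adjusted p = 7.40e-08), a 121-fold rise with 6.78 to 7.10 on the single slides. In each line 2 of the 3 empty-vector arrays read the probe above background. A second kept probe read 5.53 higher with MyoD in shSix4 cells and 6.57 higher in shLuc cells. Both probes passed the filter on dim probes only through the groups with MyoD. The calls of Itgb6 and its second probe are therefore given as a description. Itgav, the known partner of Itgb6, was at 1.44 to 1.55 in shSix4 cells with MyoD, against 1.66 to 2.15 with empty vector. It was at 1.17 to 1.48 in shLuc cells with MyoD, against 1.72 to 2.49 with empty vector. The Itgav difference was -0.34 ± 0.22 in shSix4 cells (limma adjusted p = 0.796) and -0.75 ± 0.22 in shLuc cells (limma adjusted p = 0.0785, or 0.0156 with the block, and 0.0325 without the shLuc empty-vector array of slide 3).

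Because Itgb6, Lamb3 and Itgb4 are textbook genes of epithelia, epithelial markers are given beside them. Of 8 epithelial markers on the array, 4 were above background on all 3 arrays in shSix4 cells with MyoD, against 3 with empty vector, and 3 in shLuc cells with MyoD, against 4 with empty vector. Their summed linear signal was 0.27 to 0.56 times the 75th percentile in shSix4 cells with MyoD, against 0.24 to 0.48 with empty vector. It was 0.29 to 0.44 in shLuc cells with MyoD, against 0.38 to 0.39 with empty vector, so the ranges overlapped in both lines. Epcam, Cldn4 and Esrp1, which define epithelia, were above background on no array. None of the 5 epithelial markers tested passed the threshold in any comparison. With the slide as a block 1 was higher with MyoD in each line, beside 5.7% of all genes in shSix4 cells and 9.89% in shLuc cells. Among the 5, Krt18 passed the filter on dim probes only through shSix4 cells with MyoD and was above background on no empty-vector array. Its difference with MyoD was 2.67 ± 0.82 in shSix4 cells and 2.18 ± 0.82 in shLuc cells. The skeletal muscle markers summed to 185 to 311 times the 75th percentile in shSix4 cells with MyoD, against 2.60 to 10.2 with empty vector, and to 523 to 785 in shLuc cells with MyoD, against 5.71 to 8.20 with empty vector. Whether the members moved with the share of muscle cells was not tested.

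Among the laminin chains, 3 alpha-chain or beta-chain genes rose in shSix4 cells and 2 in shLuc cells, of 7 tested. Lama5 encodes the alpha chain of laminins of epithelial, vascular and embryonic basement membranes. Its level was 2.29, 0.93 and 1.22 in shSix4 cells with MyoD, against -0.91, -2.86 and -3.07 with empty vector. It was 2.64, 2.10 and 2.38 in shLuc cells with MyoD, against -0.13, -0.81 and -1.05 with empty vector. Every MyoD array lay above every empty-vector array, and the empty-vector arrays of shSix4 cells lay lowest on slides 2 and 3. Lama5 rose by 3.76 ± 0.54 in shSix4 cells (limma adjusted p = 0.00193), which is 13.6-fold, with 3.20 to 4.29 on the single slides. In shLuc cells it rose by 3.03 ± 0.54 (limma adjusted p = 0.00530), which is 8.19-fold, with 2.77 to 3.42 on the single slides. Without the shSix4 empty-vector array of slide 1, the rise in shSix4 cells was 4.44. Of the 8 endothelial markers, Pecam1, Kdr and Tie1 were above background on no array. Of 3 tested, Vwf passed as higher with MyoD in both lines (limma adjusted p = 0.00827 in shSix4 cells, where it was above background on no empty-vector array, and 1.5 ± 0.36, adjusted p = 0.0298, in shLuc cells). Vwf passed the filter on dim probes only through shLuc cells with MyoD, so its call in shLuc cells supports nothing. Tek was above background on all 3 arrays in every group but shSix4 cells with MyoD and did not pass. The sum of all 8 was 0.14 to 0.24 times the 75th percentile in shSix4 cells with MyoD, against 0.20 to 0.32 with empty vector, and 0.14 to 0.20 in shLuc cells with MyoD, against 0.18 to 0.30 with empty vector.

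Lama2 encodes the alpha chain of the main laminin of the adult muscle fibre. Its level was -2.33, -3.38 and -2.90 in shSix4 cells with MyoD, against -5.29, -4.34 and -4.36 with empty vector. It was -2.25, -2.84 and -2.54 in shLuc cells with MyoD, against -4.94, -4.85 and -4.07 with empty vector. The groups did not overlap in either line, and the gap was widest on slide 1. Lama2 rose by 1.79 ± 0.36 in shSix4 cells (limma adjusted p = 0.0178), which is 3.46-fold, and by 2.08 ± 0.36 in shLuc cells (limma adjusted p = 0.00420), which is 4.22-fold. In shSix4 cells the adjusted p was 0.0771 or 0.0683 without the MyoD array of slide 1 or 3, 0.0580 without the empty-vector array of slide 1, and 0.0888 with the whole of slide 1 left out.

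Lamb3 encodes a beta chain of the anchoring laminin under epithelia. Its level was -1.82, -3.78 and -3.75 in shSix4 cells with MyoD, against -4.70, -5.68 and -5.44 with empty vector. It was -3.0, -3.56 and -3.69 in shLuc cells with MyoD, against -3.84, -4.25 and -4.09 with empty vector. The lowest values were those of shSix4 cells with empty vector, where the probe was above background on 0 of 3 arrays. In shSix4 cells Lamb3 was at least 4.41-fold higher with MyoD (limma adjusted p = 0.0331). This bound sets the MyoD mean against, per array, the higher of the probe's own signal and the dimmest signal well above background. In shLuc cells the difference was 0.64 ± 0.48 (limma adjusted p = 0.523). The shSix4 adjusted p was 0.0557 or 0.0546 without the shLuc MyoD array of slide 2 or 3, and 0.0513, 0.0598 or 0.0571 without the shLuc empty-vector array of slide 1, 2 or 3. It was 0.150 or 0.129 without the shSix4 empty-vector array of slide 2 or 3, and without the shSix4 MyoD array of slide 1 the fitted change was 1.51 (adjusted p = 0.0308).

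The remaining chains of the mesenchymal and muscle laminins did not pass. Lamb1 encodes the beta chain shared by the main embryonic and muscle laminins. Its level was 2.96, 3.72 and 3.71 in shSix4 cells with MyoD, against 3.06, 3.75 and 3.95 with empty vector. It was 2.59, 3.44 and 3.51 in shLuc cells with MyoD, against 2.88, 3.35 and 3.66 with empty vector. The groups overlapped in both lines and the difference was -0.12 ± 0.34 in each. Lamb2, whose product is concentrated at the neuromuscular junction, was at 2.59 to 3.35 in shSix4 cells with MyoD, against 3.39 to 4.06 with empty vector, and at 2.79 to 3.28 in shLuc cells with MyoD, against 3.43 to 4.28 with empty vector. Its difference was -0.57 ± 0.29 in shSix4 cells (limma adjusted p = 0.622) and -0.82 ± 0.29 in shLuc cells (limma adjusted p = 0.149, or 0.00734 with the block). Lama4, a chain of mesenchymal and endothelial laminins, differed by -0.75 ± 0.69 in shSix4 cells and by -0.95 ± 0.69 in shLuc cells (limma adjusted p = 0.928 and 0.510, the second 0.0221 with the block and 0.0290 without slide 1). Lama1, the alpha chain of early embryonic laminin, was above background on 1 of 12 arrays, that of shLuc cells with MyoD on slide 3, where it read -2.74 with all other arrays at or below -6.73.

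**Figure D2:**
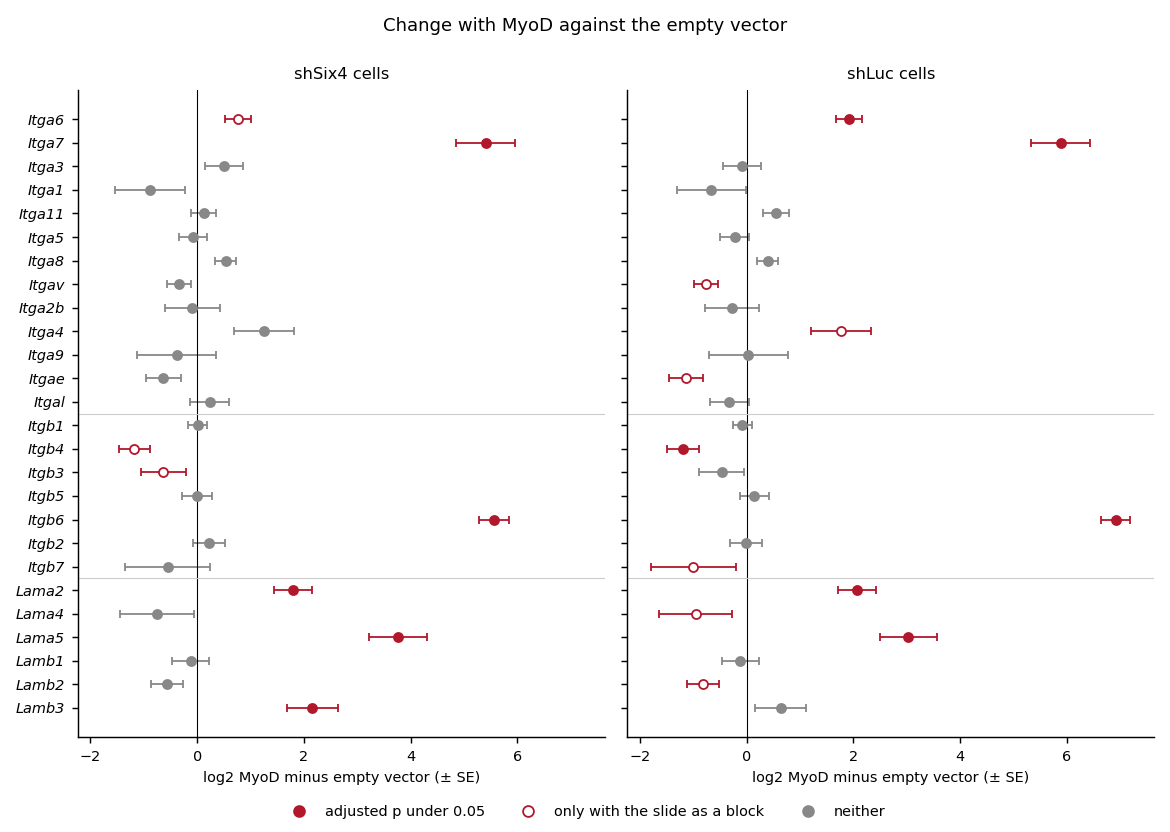
Change of 26 tested integrin and laminin genes with MyoD, as log2 MyoD minus empty vector ± SE, in shSix4 cells (left) and shLuc cells (right), 3 arrays per group. Filled red points passed the adjusted threshold, open red points passed it only with the slide as a block and grey points passed neither. Itgb6, Itga7 and Lama5 stand apart on the right in both lines, at 3.03 or more, and the other members lie between -1.20 and 2.16.

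The other integrin alpha genes did not pass in either line. Of 13 tested, 1 passed in shSix4 cells and 2 in shLuc cells, all higher with MyoD. Leaving out Itga4, the others lay between -0.88 (Itga1, a collagen receptor subunit) and 0.77 (Itga6) in shSix4 cells. In shLuc cells they lay between -1.13 (Itgae, which binds E-cadherin as a partner of Itgb7) and 0.55 (Itga11). Itga4, a receptor subunit for fibronectin and VCAM1, passed the filter on dim probes only through shLuc cells with MyoD, where it was above background on 3 of 3 arrays, beside 1 of 3 in shSix4 cells with MyoD and 0 of 3 in both empty-vector groups. It was tested only because that group is bright, so its call with the block in shLuc cells supports nothing, and as a description it was at least 1.97-fold higher there with MyoD. The difference of Itgae in shLuc cells had an adjusted p of 0.0682, or 0.00813 with the block, 0.0374 without the shLuc empty-vector array of slide 2 and 0.0376 without the shSix4 empty-vector array of slide 1.

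Itga5, the main fibronectin receptor subunit, differed by -0.08 ± 0.27 in shSix4 cells and -0.22 ± 0.27 in shLuc cells. Itga8, an RGD-binding partner of Itgb1, differed by 0.54 ± 0.20 and 0.40 ± 0.20, and Itga11, a collagen receptor subunit of fibroblasts, by 0.12 ± 0.24 and 0.55 ± 0.24, in shSix4 and in shLuc cells. Itga9 and Itga2b, a platelet subunit, differed by less than their SE in both lines. Itgal, a leukocyte subunit, differed by 0.23 ± 0.36 in shSix4 cells and -0.33 ± 0.36 in shLuc cells. None of these 6 genes passed in limma, with or without the block.

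Of 7 integrin beta genes, 1 passed in shSix4 cells and 2 in shLuc cells. Itgb5, the vitronectin receptor partner of Itgav, was at 5.38 to 6.15 in shSix4 cells with MyoD, against 5.56 to 5.87 with empty vector, and at 5.43 to 6.23 in shLuc cells with MyoD, against 5.27 to 5.86 with empty vector. Itgb3, another partner of Itgav, differed by -0.64 ± 0.43 in shSix4 cells (limma adjusted p = 0.797, or 0.0414 with the block) and by -0.46 ± 0.43 in shLuc cells (limma adjusted p = 0.625). The leukocyte subunits Itgb2 and Itgb7 differed by 0.22 ± 0.31 and -0.55 ± 0.80 in shSix4 cells. In shLuc cells they differed by -0.01 ± 0.31 and -1.0 ± 0.80, and Itgb7 had an adjusted p of 0.0415 with the block. Beside these, the 11 leukocyte markers on the array summed to 1.11 to 1.45 times the 75th percentile in shSix4 cells with MyoD, against 1.42 to 1.66 with empty vector, and to 0.77 to 0.86 in shLuc cells with MyoD, against 0.98 to 1.30 with empty vector. Ptprc, Laptm5 and Spi1, which define leukocytes, were above background on no array, and of 5 markers tested 1, Coro1a, was lower with MyoD in shLuc cells. The 4 platelet markers summed to 0.26 to 0.41 in shSix4 cells with MyoD, against 0.36 to 0.43 with empty vector, and to 0.27 to 0.29 in shLuc cells with MyoD, against 0.39 to 0.53 with empty vector. Of 3 platelet markers tested 1, Ppbp, was lower with MyoD in shLuc cells (-1.10 ± 0.28, limma adjusted p = 0.0391). Ppbp passed the filter on dim probes only through the empty-vector groups. The part of such cells in these member values was not tested. Itgbl1, a secreted protein with integrin-like repeats, was above background on all arrays and did not pass in any comparison, and Itgb2l was above background on none.

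Promoter windows were looked up for the 7 members that passed in a MyoD comparison, because these genes moved with a factor that binds E-boxes, sites with the letters CANNTG. RefSeq windows of build GRCm38.p6 were held for 4 of the 7: Itgb6, Lama2, Lama5 and Lamb3, with a pair of start sites each for Itgb6 and Lamb3. The 250 bases before the start are printed on the gene's strand, with matches to CAGCTG or CACCTG, the E-boxes MyoD is known to prefer, in capitals on either strand (CACCTG reads CAGGTG on the other strand).
Itgb6 upstream window, chr2:60722604-60722853, minus strand: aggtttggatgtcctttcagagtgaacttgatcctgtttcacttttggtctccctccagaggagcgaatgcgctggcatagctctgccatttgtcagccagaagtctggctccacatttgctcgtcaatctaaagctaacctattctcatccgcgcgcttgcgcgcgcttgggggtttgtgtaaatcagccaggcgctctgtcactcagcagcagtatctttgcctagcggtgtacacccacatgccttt
Itgb6 downstream window, chr2:60673694-60673943, minus strand: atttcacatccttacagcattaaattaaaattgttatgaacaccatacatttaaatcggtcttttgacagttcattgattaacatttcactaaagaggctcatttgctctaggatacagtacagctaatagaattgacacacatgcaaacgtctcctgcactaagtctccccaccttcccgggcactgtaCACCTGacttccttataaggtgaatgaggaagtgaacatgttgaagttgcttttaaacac
Lama5, chr2:180225860-180226109, minus strand: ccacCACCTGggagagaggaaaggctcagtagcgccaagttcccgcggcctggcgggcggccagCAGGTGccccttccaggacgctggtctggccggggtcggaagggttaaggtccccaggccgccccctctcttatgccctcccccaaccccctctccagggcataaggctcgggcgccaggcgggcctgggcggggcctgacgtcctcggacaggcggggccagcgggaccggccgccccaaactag
Lama2, chr10:27616943-27617192, minus strand: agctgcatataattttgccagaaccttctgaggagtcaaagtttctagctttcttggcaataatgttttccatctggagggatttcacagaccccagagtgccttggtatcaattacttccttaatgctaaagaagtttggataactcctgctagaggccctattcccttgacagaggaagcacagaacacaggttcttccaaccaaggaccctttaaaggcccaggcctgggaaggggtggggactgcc
Lamb3 upstream window, chr1:193301744-193301993, plus strand: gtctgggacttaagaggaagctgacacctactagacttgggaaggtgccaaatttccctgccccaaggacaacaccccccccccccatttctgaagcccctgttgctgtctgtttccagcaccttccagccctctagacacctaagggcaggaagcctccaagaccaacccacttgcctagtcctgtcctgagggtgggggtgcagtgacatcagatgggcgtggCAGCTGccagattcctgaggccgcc
The upstream Itgb6 window and the Lama2 window hold neither motif. The downstream Itgb6 window holds CACCTG starting 60 bases before the start, Lama5 holds it at 246 and 186 bases, and the upstream Lamb3 window holds CAGCTG at 25 bases. The second Lamb3 window, not printed, holds CACCTG at 6 bases. Over all 32851 windows of the same length, 13% hold CAGCTG, 17.2% hold CACCTG and 66.2% hold any CANNTG, of which both are forms. Of the 6 windows of these members, 16.7%, 50% and 100% do, in the same order. Over the 21 windows of all tested members, which include those 6, the shares are 28.6%, 33.3% and 90.5%. Members that did not pass, such as Itga9 and Itgb5, also hold both motifs. TCAGGTT, known as MEF3 and bound by proteins of the Six4 family, is in 3.49% of all windows and in 0 of the 6 windows of these members, searched on both strands. These matches describe the letters in the windows and nothing was measured at these sites.

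No member passed between shSix4 and shLuc cells in limma, neither with MyoD nor with empty vector. With MyoD, 0 of 27 members passed, beside 0.228% of all genes (0.065% higher, 0.163% lower), and 4 members had an unadjusted p under 0.05, beside 960 of 12300 genes. With empty vector, 0 of 27 passed, beside 0.0569% of all genes (0.00813% higher, 0.0488% lower), and 6 members had an unadjusted p under 0.05, beside 547 genes. With the slide as a block, 1 member passed with MyoD (Itga11, lower), beside 4.33% of all genes (1.75% higher, 2.59% lower). With empty vector 1 passed (Itga6, higher), beside 0.642% (0.146% higher, 0.496% lower). The arrays of the 2 lines did not overlap for 2 members with MyoD, both lower, beside 12.1% of all genes (6% higher, 6.09% lower). With empty vector they did not overlap for 5 (2 higher, 3 lower), beside 8.37% (3.3% higher, 5.07% lower). These comparisons use the same arrays as the MyoD comparisons and are not independent of them.

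Itga11 was the member nearest to the threshold with MyoD. Its level was 0.87, 0.91 and 1.27 in shSix4 cells with MyoD, against 1.88, 2.41 and 2.31 in shLuc cells with MyoD. With empty vector it was 1.18, 0.58 and 0.94 in shSix4 cells, against 1.49, 2.01 and 1.44 in shLuc cells. The arrays of the 2 lines did not overlap with either vector, and shSix4 cells were lower. The difference was -1.18 ± 0.24 with MyoD (limma adjusted p = 0.0867, or 0.0228 with the block, 95% interval -1.70 to -0.66). With empty vector it was -0.75 ± 0.24 (limma adjusted p = 0.781, or 0.184 with the block). Itga8 showed the same arrangement at a smaller size, with -0.46 ± 0.20 with MyoD (limma adjusted p = 0.571) and -0.60 ± 0.20 with empty vector (limma adjusted p = 0.793), and no overlap of arrays with either vector.

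Itga6 was 0.91 ± 0.24 higher in shSix4 than in shLuc cells with empty vector, with 0.56 to 1.18 on the single slides and no overlap (limma adjusted p = 0.475, or 0.0408 with the block). It was 0.25 or 0.57 under the planned or the refitted normexp background correction. With MyoD its difference was -0.25 ± 0.24 (95% interval -0.79 to 0.29). The levels on each array, given above, differ between the lines mainly with empty vector.

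Lama5 and Lamb3 read lower in shSix4 cells with empty vector. For Lama5 the difference was -1.62 ± 0.54 (limma adjusted p = 0.800), with -0.78 on slide 1, -2.05 on slide 2 and -2.02 on slide 3. With MyoD it was -0.89 ± 0.54 (limma adjusted p = 0.864), with -0.35, -1.17 and -1.16 on the slides. Slide 1, which was scanned on another day than slides 2 and 3, held the smallest Lama5 difference with either vector. With slide 1 left out, a fit added after the data were seen, Lama5 fell by 2.04 with empty vector (limma adjusted p = 0.00591) and by 1.16 with MyoD (limma adjusted p = 0.0348). The same fit called 280 and 271 of 12300 genes in these comparisons, against 7 and 28 with all slides. For Lamb3 with empty vector, shSix4 cells were at least 2.29-fold lower (limma adjusted p = 0.999), and without slide 1 the adjusted p was 0.00996. With MyoD Lamb3 differed by 0.30 ± 0.48 (-0.40 under the planned normexp), with 1.18 on slide 1, -0.22 on slide 2 and -0.05 on slide 3.

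The subunits of the muscle laminin receptor and its ligand did not pass between the lines. With MyoD, Itga7 differed by -0.17 ± 0.55 (95% interval -1.39 to 1.05), Itgb1 by 0.12 ± 0.18 (-0.27 to 0.52) and Lama2 by -0.33 ± 0.36 (-1.12 to 0.45). These intervals, from the fit without the slide as a block, hold differences of more than 2-fold for Itga7 and Lama2. On the single slides Itga7 differed by -0.27, -0.15 and -0.09 and Lama2 by -0.09, -0.54 and -0.36. Itgb6 differed by -0.66 ± 0.28 with MyoD (limma adjusted p = 0.575) and by 0.70 ± 0.28 with empty vector (limma adjusted p = 0.999), where its other kept probe read -0.07 and the planned and refitted normexp corrections gave -0.53 and -0.13. Beside these values, 1 of 10 skeletal muscle markers, Myh3, was lower in shSix4 cells with MyoD (0.163% of all genes). With the slide as a block 5 of 10 were lower (2.59% of all genes). Myod1 stood at -2.17, -0.86 and -0.23 in shSix4 cells with MyoD, against 0.07, -0.23 and 1.23 in shLuc cells with MyoD. Its difference of -1.45 ± 0.81 did not pass (limma adjusted p = 0.837), and its part in the member values was not tested.

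**Figure D3:**
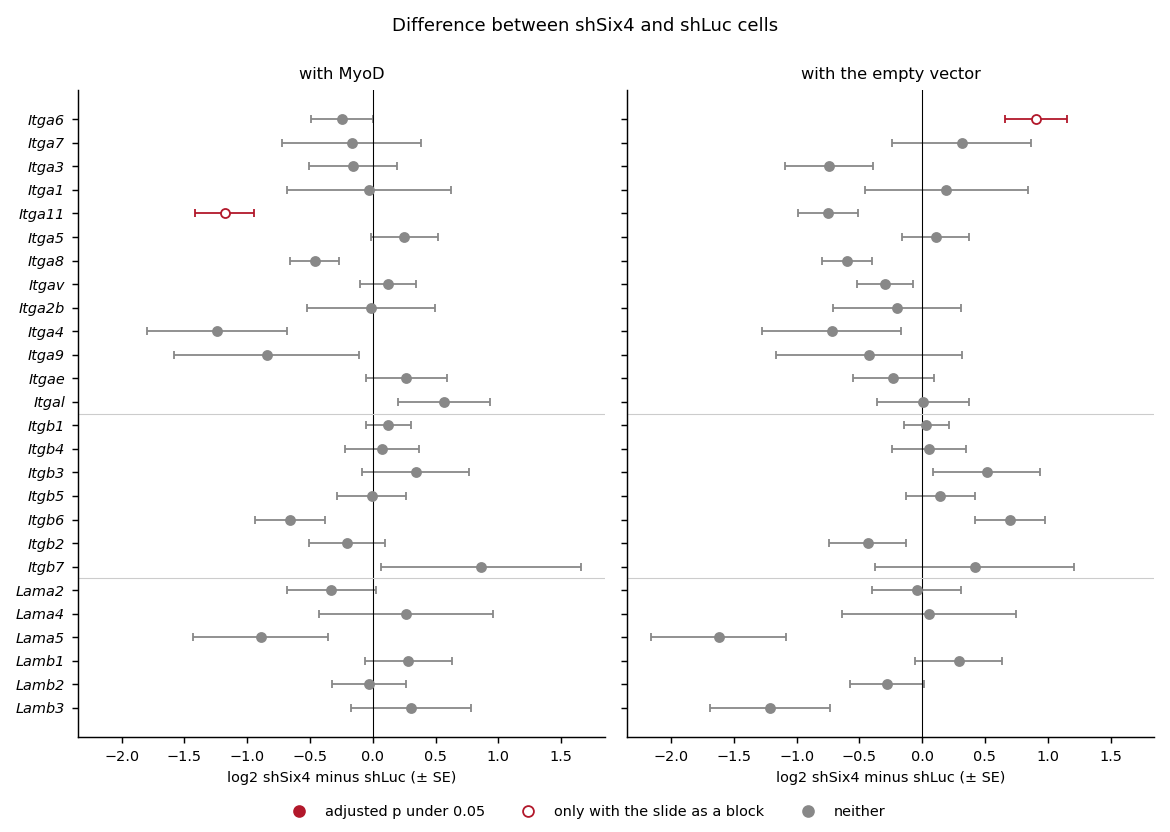
Difference between shSix4 and shLuc cells for 26 tested integrin and laminin genes, as log2 shSix4 minus shLuc ± SE, with MyoD (left) and with empty vector (right), 3 arrays per group. No point passed the adjusted threshold, and open red points passed it only with the slide as a block. Itga11 lies at -1.18 with MyoD, and Lama5 lies at -1.62 and Itga6 at 0.91 with empty vector.

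The difference of the MyoD response between shSix4 and shLuc cells was tested as an interaction. In limma 0 of 27 members passed, beside 0% of all genes, and 3 members had an unadjusted p under 0.05, beside 249 genes. With the slide as a block 0 members passed as well. The 3 members were Itga6, Itgb6 and Lamb3. For Itga6 the response in shSix4 cells minus that in shLuc cells was -1.15 ± 0.35 (adjusted p = 1.000 after rounding, 95% interval -1.92 to -0.39), and -0.54 or -0.89 under the planned or the refitted normexp background correction. For Itgb6 it was -1.36 ± 0.39 (-2.23 to -0.49), and -0.09 or -0.60 under those corrections, and Lamb3 had 1.51 ± 0.67 (0.03 to 3.0). For Lamb3 the probe was not above background on any array of shSix4 cells with empty vector.

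Lists of partner genes are given with the share of each list that passed, beside 2.89% of all genes in shSix4 cells and 6.28% in shLuc cells. Of 32 tested genes of integrin activation and focal adhesion, 1 was higher and 0 lower with MyoD in shSix4 cells, and 2 were higher and 2 lower in shLuc cells (3.12% and 12.5% of the list). The median of the list was -0.13 in shSix4 cells (all genes -0.06) and -0.23 in shLuc cells (all genes -0.14). Itgb1bp2, known as melusin, a muscle protein that binds the tail of Itgb1, was at least 3.79-fold higher with MyoD in shSix4 cells (limma adjusted p = 0.000946) and rose by 4.80 ± 0.49 in shLuc cells (limma adjusted p = 8.75e-05). Among empty-vector arrays, 0 of 3 in shSix4 cells and 1 of 3 in shLuc cells read its probe above background. Itgb1bp2 therefore passed the filter on dim probes only through groups with MyoD, and the shares of 3.12% and 12.5% both count it. In shLuc cells Flnc, the muscle filamin, rose by 0.91 ± 0.21, and the adaptor Tns2 and the kinase Src fell by 0.71 ± 0.16 and 0.69 ± 0.16 (limma adjusted p = 0.0266, 0.0239 and 0.0259).

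Of 17 tested basement membrane partners of laminin, 0 passed in shSix4 cells and 2 were higher in shLuc cells (11.8%). The median of this list was -0.17 in shSix4 cells (all genes -0.06) and -0.26 in shLuc cells (all genes -0.14). Ntn4, a netrin that binds laminin, rose by 1.16 ± 0.24 in shLuc cells (limma adjusted p = 0.0132). Fras1, a matrix protein of embryonic basement membranes, was at least 5.17-fold higher with MyoD in shLuc cells (limma adjusted p = 0.00136), the group through which alone it passed the filter on dim probes. The share of 11.8% counts Fras1. Of 22 other laminin receptors and tetraspanin partners, 2 were higher in each line (9.09%), with a median of -0.07 in shSix4 cells (all genes -0.06) and 0.00 in shLuc cells (all genes -0.14). Sgca, a sarcoglycan of the muscle laminin receptor complex built on dystroglycan, rose by 3.97 ± 0.57 in shSix4 cells and 3.67 ± 0.57 in shLuc cells (limma adjusted p = 0.00192 and 0.00207). Cd82, a tetraspanin, rose by 2.90 ± 0.54 and 3.30 ± 0.54 in the same order (limma adjusted p = 0.0112 and 0.00291). None of 16 tested non-laminin integrin ligands passed in either line, with medians of -0.34 in shSix4 cells and -0.41 in shLuc cells. With the slide as a block, which called 8.3% of all genes in shSix4 cells and 25.6% in shLuc cells, 3 of these ligands passed in shSix4 cells (2 higher, 1 lower, 18.8%) and 5 in shLuc cells (2 higher, 3 lower, 31.2%). The block also gave 3 focal adhesion genes in shSix4 cells (all higher, 9.38%) and 8 in shLuc cells (3 higher, 5 lower, 25%). In shLuc cells it gave 6 basement membrane partners (3 higher, 3 lower, 35.3%) and 10 other receptors (7 higher, 3 lower, 45.5%). No gene of the 4 lists passed between shSix4 and shLuc cells with either vector, beside 0.228% of all genes with MyoD and 0.0569% with empty vector. With the block and MyoD, 4 of 32 focal adhesion genes (1 higher, 3 lower, 12.5%) and 1 of 17 basement membrane partners (lower, 5.88%) passed between the lines. So did 2 of 22 other receptors (1 higher, 1 lower, 9.09%) and 2 of 16 ligands (1 higher, 1 lower, 12.5%). The same fit called 4.33% of all genes (1.75% higher, 2.59% lower). With the block and empty vector none of the listed genes passed, beside 0.642% of all genes.

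Slide 1 stood apart in the same way in every group for many genes, and for members about as often as for all genes. In all 4 groups, slide 1 lay below slides 2 and 3 for 6 of 27 members (22.2%, beside 19.6% of all genes) and above them for 7 (25.9%, beside 26.3%). The 6 lower were Itga1, Itga5, Itga9, Itgb3, Lama4 and Lamb1, and the 7 higher were Itga3, Itga6, Itga7, Itgb5, Itgb7, Lama5 and Lamb3. Lama4 stood at 1.09, 3.49 and 3.50 in shSix4 cells with MyoD, against 2.53, 3.82 and 3.98 with empty vector. It stood at 1.36, 2.97 and 2.97 in shLuc cells with MyoD, against 2.73, 3.76 and 3.68 with empty vector. Slide 1 was the low array of every group, 0.99 to 2.41 below the mean of the other slides. Itga9 was 0.77 to 2.54 lower on slide 1 and Itgb7 was 1.05 to 2.50 higher. For these genes the SE without a block was 0.69 to 0.80, and within each slide the MyoD difference of Lama4 ran from -1.37 to -0.71 in shLuc cells.

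**Figure D4:**
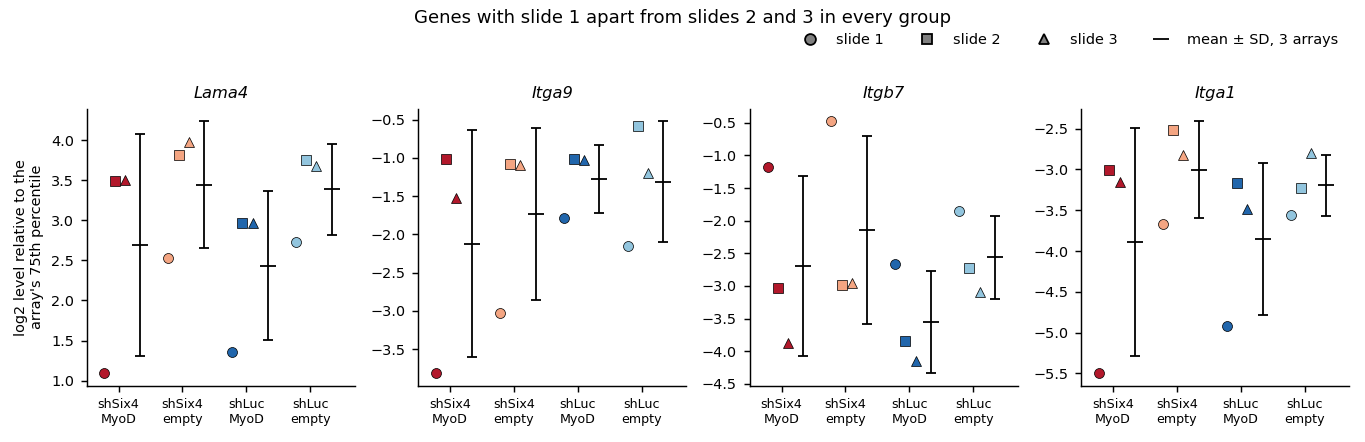
Level of Lama4, Itga9, Itgb7 and Itga1 on each array, as log2 relative to the 75th percentile of the array, for the 4 groups. Symbols are single arrays by slide and black bars are the group mean ± SD. In every group the slide 1 array lies below the other arrays for Lama4, Itga9 and Itga1, and above them for Itgb7.

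The size of the largest changes depended on the background correction. With normexp background correction fitted without marked spots, an alternative added after the data were seen, the rise of Itgb6 was 3.67 in shSix4 cells and 4.27 in shLuc cells, and that of Itga7 was 4.21 and 4.16. Lama2 rose by 0.94 and 0.87, and Lama5 by 3.15 and 2.83, in shSix4 and in shLuc cells. Lamb3 in shSix4 cells differed by 0.91 under that correction and did not pass.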

How the data were processed

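The authors measured RNA on 12 single-colour Agilent arrays, 3 in each of 4 groups, grouped by the labels' titles and characteristics. The labels' description field, which names other cells and stages against every other field, was left aside. The deposited scanner files hold each spot's processed signal intensity, background-subtracted by Agilent Feature Extraction 11.5.1.1 per the file headers (10.5.1.1 per the submitters' processing notes). A deposited table of log2 values from the authors, covering 3867 probes with unstated scale and centring, served as an alternative.

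Here log2 processed signal was taken minus each array's 75th percentile over non-control spots, and outlier-marked spots were dropped. A probe was kept where some group had it well above background on its 3 arrays (24000 of 41174). The brightest named probe stood for each gene. RefSeq symbols of GRCm38.p6 named 24844 probes. limma 3.58.1 in R 4.3.3 was fitted over 12300 genes and 4 groups without a block (8 residual and 2.85 prior degrees of freedom), with Benjamini-Hochberg adjustment and a threshold of 0.05. The scripts were checked on simulated data. The number of arrays limits the precision. Nothing in the labels makes the replicates separate cultures, and the p-values cover only the spread among these arrays, possibly a technical one.

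Replicate numbers equal slides per the file headers. Deviations of arrays on the same slide correlated at 0.278 to 0.819 in all 18 pairs, against -0.733 to 0.498 across slides, so the numbers were taken to pair the arrays.

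The members and lists were chosen with earlier results of these data known. Every member is accounted for, and per-array levels are given for members that passed, for laminin-binding subunits and for the chains of the embryonic and muscle laminins. Other members with per-array levels (Itga11, Lama4) were chosen after their values were seen. Of each partner list, genes past the threshold are named. The values of 1 tested member are not reported here, though the counts include it. Promoters came from RefSeq. Alternatives covered background correction, normalization, the filter, the probe rule, the block and leaving out arrays. The normexp alternatives used the median spot signal, because the files used hold no mean signal.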

Additional observations from a re-analysis of the deposited data

Results flagged for a closer look

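Itga6, Itga7 and Itgb6 differed between shSix4 and shLuc cells in opposite directions with the 2 vectors on all 3 slides. The difference of Itga6 was -0.25 with MyoD and 0.91 with empty vector. That of Itga7 was -0.17 with MyoD and 0.32 with empty vector. That of Itgb6 was -0.66 with MyoD and 0.70 with empty vector. The empty-vector direction of Itga7 turned under the planned and the refitted normexp corrections (-0.61 and -0.12), as did that of Itgb6 (-0.53 and -0.13), whose other kept probe read -0.07. For Itga6 it was 0.25 and 0.57. These differences were picked out by their directions, without a test. The interaction fitted in limma gave no call for them, with an adjusted p of 1.00 for each after rounding, and of 0.194 for Itga6, 0.797 for Itga7 and 0.212 for Itgb6 with the slide as a block.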

How the results depend on the processing

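The 5 counts of members past the threshold were recomputed under 23 alternatives each. For MyoD in shSix4 cells the count of 5 became 2 with the planned normexp correction, 1 of 20 members with probes above background on all 12 arrays, 8 with the replicate block (slide) and 1 of 7 members in the authors' table. For MyoD in shLuc cells the count of 6 became 0 with normexp, 3 of 20 with the all-array filter, 13 with the block and 2 of 7 in the authors' table. The stricter filter and the authors' table test fewer members. Between shSix4 and shLuc cells the count of 0 became 1 with MyoD and 1 with empty vector under the block, and 1 and 2 without slide 1. Leaving out single arrays gave 4 to 6 calls for MyoD in shSix4 cells, 5 to 7 in shLuc cells, and 0 to 0 between the lines with either vector and for the interaction. The interaction count was 0 under all 23 alternatives. The planned normexp fit took in spots with signal minus background down to -25529.5, -61497 and -2050.5 on 3 arrays. Refitted without marked spots, it gave 5 calls in shSix4 cells and 7 in shLuc cells. Over all genes, MyoD calls in shSix4 cells were 356, against 1021 with the block, 49 with normexp, 154 with the all-array filter and 51 of 2638 in the authors' table. In shLuc cells they were 772, against 3153, 86, 457 and 157 in that order. With MyoD, shSix4 against shLuc gave 28 calls, against 533, 0, 6 and 21, and with empty vector 7 calls, against 79, 0, 4 and 3. No member that passed changed sign under another background correction or scaling. Of the 27 differences per comparison, mostly small ones that did not pass, 4 with MyoD in shSix4 cells, 2 with MyoD in shLuc cells, 7 between the lines with each vector and 8 of the interaction turned under the planned normexp, and 1, 1, 2, 4 and 7 under the refit. Among them, Itga4 with MyoD in shSix4 cells was 1.25 and became -0.24. Itga7 and Lama5 passed in shSix4 cells under every alternative that tested them, and Itgb6 in both lines and Itga7, Itga6, Lama5 and Lama2 in shLuc cells failed only with the planned normexp. Signal near background limits the size of changes from dim empty-vector probes.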
